A study of Mus musculus with 15 samples.

Results

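The genes described here are 10 that mark or drive epithelial-mesenchymal transition (EMT), counted in sorted cells of mouse skin tumours. They are the intermediate filament gene Vim, the transcription factor genes Zeb1, Zeb2, Snai1, Snai2, Twist2 and Prrx1, and the classical cadherin genes Cdh1, Cdh2 and Cdh3. They were taken by symbol from the 37583 Ensembl genes of the count tables, and each symbol matched 1 gene identifier. Of the 10, 5 (Vim, Snai2, Twist2, Cdh1 and Cdh3) had enough reads to be tested, and Zeb1, Zeb2, Snai1, Prrx1 and Cdh2 did not.

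EMT is the passage of epithelial cells to a motile, mesenchymal state. In the textbook scheme, factors of the Snail, ZEB and Twist families bind E-box sequences and repress Cdh1, which encodes E-cadherin, the adhesion protein of epithelial junctions, while Vim and Cdh2, which encodes N-cadherin, are switched on. In skin, Cdh3 encodes P-cadherin, found on basal and hair follicle keratinocytes, and Snai2 (Slug) is also made by normal keratinocytes, so its RNA alone does not mark a mesenchymal cell.

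The tumours grew on C57BL/6 mice treated with DMBA, a mutagen, and TPA, a tumour promoter, for over 24 weeks. Wild-type animals (WT) were compared with animals carrying floxed Sirt6 alleles and a Cre recombinase driven by the K14 promoter (KO), which acts in keratinocytes and not in the stroma. Flow cytometry gave 3 populations, written here as CD34+/a6hi, CD34-/a6hi and CD34-/a6lo, for surface CD34 and for high or low surface a6, the integrin chain of basal keratinocytes encoded by Itga6. Where the other marker is clear they are shortened to CD34+ and a6lo cells. Each population had 2 KO and 3 WT libraries, 15 in all, with 10080902 to 28622043 reads counted in genes per library. A label is here a genotype with a replicate number. The sources do not say whether labels are separate animals or pools, nor the animals' age, so p-values measure only the spread between these libraries. A pooled RNA level cannot tell fewer cells of a kind from less RNA per cell.

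The labels were checked first. Sirt6 lay at 5.07 to 8.53 CPM (read counts relative to library size, with TMM scaling) in the KO and 4.45 to 10.5 CPM in the WT libraries. The ranges overlapped, so the deletion could not be read from whole-gene counts and KO stands for libraries labelled KO. Cd34 lay at 163 to 214 CPM in the CD34+ and 4.51 to 40.3 CPM in the 10 other libraries. Itga6 ranged from 263 to 576 CPM across the a6hi libraries, but the a6lo libraries of WT replicate 1 (471 CPM) and KO replicate 2 (446 CPM) were at that level too, against 67.9, 94.1 and 174 CPM in the other 3. The 3 libraries of KO replicate 2 also had the Y-linked gene Ddx3y at 51.9 to 74.9 CPM, against at most 0.222 CPM in the others. All 10 keratinocyte markers were counted in all libraries, Krt14 at 28330 CPM or more and Epcam at 137 CPM or more.

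Promoter windows were read for the E-box that Snail and ZEB factors recognise. RefSeq promoter entries (build GRCm38.p6) were found for 5 of the 10 genes, Vim, Zeb2, Snai1, Twist2 and Prrx1. The 250 bases before the start were searched for 4 motifs and their reverse complements. The Snail and ZEB E-box CAGGTG, read as CACCTG on the other strand, was in 17.2% of 32851 such windows of all genes. Any E-box, CANNTG, which includes the former, was in 66.2%. The AP-1 site TGAGTCA was in 4.46%, and the GC box GGGCGG in 32.7%. Snai1, at chr2:167537945-167538194 on the plus strand, is shown because it alone of these 5 genes holds the Snail and ZEB E-box, once, in capitals, with its first base 126 bases before the start. Vim, at chr2:13574061-13574310 on the plus strand, is shown because its RNA differed most between a6hi and a6lo cells among the 5 genes tested, and it holds none of the motifs.
Snai1: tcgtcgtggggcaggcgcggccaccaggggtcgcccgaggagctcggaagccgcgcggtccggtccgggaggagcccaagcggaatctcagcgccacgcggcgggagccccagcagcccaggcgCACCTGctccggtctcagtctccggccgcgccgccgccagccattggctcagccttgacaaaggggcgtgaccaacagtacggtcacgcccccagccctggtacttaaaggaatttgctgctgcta
Vim: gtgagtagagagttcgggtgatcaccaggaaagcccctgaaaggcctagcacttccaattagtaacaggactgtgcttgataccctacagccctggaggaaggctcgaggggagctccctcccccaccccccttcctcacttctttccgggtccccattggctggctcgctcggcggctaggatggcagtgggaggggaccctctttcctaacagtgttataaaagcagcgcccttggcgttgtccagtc
A match in these letters is a description and not a measured binding site.

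The ZEB genes, which encode zinc finger repressors of epithelial genes, were at or next to zero. Zeb1 (ENSMUSG00000024238) had 0 reads in each of the 15 libraries, 283.4 M (mega) counts in all. A total of 0 allows a level of up to 0.0106 CPM (3 counts over all libraries, counting error only). Zeb2 (ENSMUSG00000026872) had 13 reads in all. In CD34+/a6hi libraries it had 1 and 4 reads in KO replicates 1 and 2 and 0, 1 and 0 in WT replicates 1 to 3. In CD34-/a6hi libraries it had 1 and 2 in KO and 0 in each WT library, and in a6lo libraries 2 and 1 in KO and 1, 0 and 0 in WT. So all 6 KO libraries, which come from 2 labels, and 2 of 9 WT libraries held a Zeb2 read. These were 11 reads in 138.1 M KO counts against 2 in 145.2 M WT counts. Each KO library had 19.78 to 28.62 M counts and each WT library 10.08 to 21.56 M. The part of library depth in these counts was not tested. Zeb2 had too few reads to be tested, and these counts give no genotype result. ZEB2 is also made by leukocytes, and the 12 macrophage and dendritic cell markers summed to 33.9 to 181 CPM in KO and 10.1 to 104 CPM in WT libraries, with 9 of the 11 tested in the sums per label higher in KO and Mrc1 at 0 in all WT libraries. Their part in the Zeb2 counts was not tested.

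Snai1 (ENSMUSG00000042821), which encodes the Snail repressor, had 17 reads in all and at most 4 in a library. It was read in 4 of 6 KO and 6 of 9 WT libraries, with 8 reads in CD34+/a6hi, 4 in CD34-/a6hi and 5 in a6lo libraries. Prrx1 (ENSMUSG00000026586), a homeobox factor of mesenchymal cells, had 5 reads in the CD34+ library of KO replicate 2, 1 read in the a6lo library of KO replicate 1 and 0 in the other 13 libraries. Cdh2 (ENSMUSG00000024304) had 7 reads in all, 2 in CD34+/a6hi, 2 in CD34-/a6hi and 3 in a6lo libraries. No population stood apart for these 3 genes beyond single reads, apart from the 5 Prrx1 reads of 1 library, and no difference was detectable at this depth.

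Twist2 (ENSMUSG00000007805), a basic helix-loop-helix factor of dermal mesenchyme, had 58 reads in 6 of the libraries. The CD34+ libraries held 0 and 26 reads in KO and 14, 2 and 0 in WT. The CD34-/a6hi libraries held 0 and 9 in KO and 0 in each WT library, and the a6lo libraries 0 and 3 in KO and 4, 0 and 0 in WT. KO replicate 2 and WT replicate 1 together gave all but 2 of the reads. KO replicate 1 and WT replicate 3 had 0 in all populations. Twist2 passed no test, and its fitted differences rest on groups at or near 0 and give no measure of size.

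**Figure D1:**
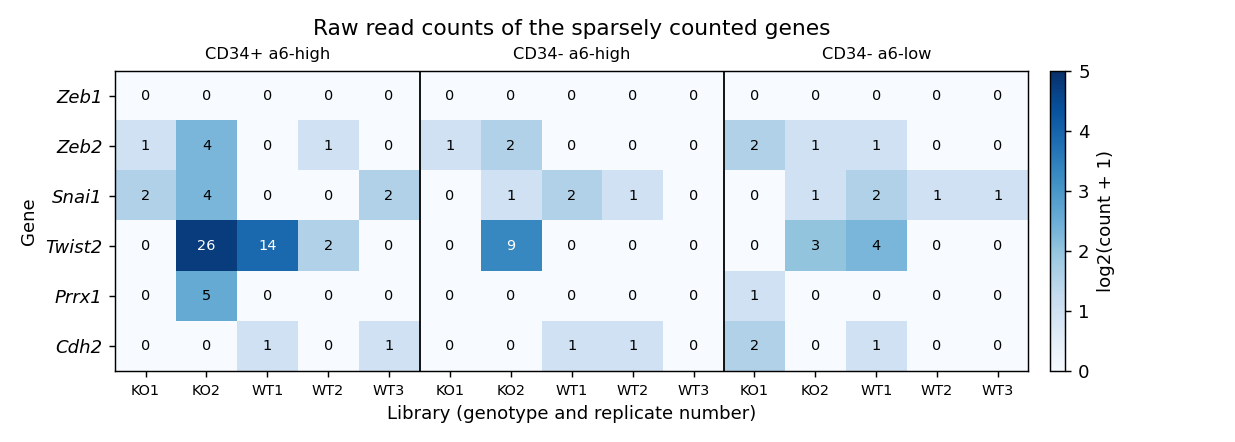
Raw read counts of Zeb1, Zeb2, Snai1, Twist2, Prrx1 and Cdh2 (rows) in the 15 libraries (columns, by population, genotype and replicate number); the number in each cell is the count and the shade its log2(count + 1). The 26 Twist2 reads of KO replicate 2 in CD34+ cells are the highest cell, and the Zeb1 row is 0 throughout.

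Snai2 (ENSMUSG00000022676) was the EMT factor with reads in every library. It lay at 106 and 155 CPM in KO and 83.8, 86.3 and 76.7 CPM in WT libraries of CD34-/a6hi cells. In a6lo cells it lay at 30.5 and 47.2 CPM in KO and 70.3, 23.5 and 49.7 CPM in WT libraries. All 5 of these CD34-/a6hi libraries were above all 5 a6lo libraries, and CD34+/a6hi libraries lay between, at 69.8 and 89.8 CPM in KO and 92.6, 67.6 and 46.1 CPM in WT, overlapping both. The means were 102 ± 31.6 (SD, n = 5), 44.2 ± 18.3 and 73.2 ± 18.9 CPM in that order.

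Vim (ENSMUSG00000026728), the filament gene of mesenchymal cells, had the reverse order in CD34- cells, at a low level. It lay at 2.24 and 0.613 CPM in KO and 1.15, 0.956 and 1.53 CPM in WT libraries of CD34-/a6hi cells, from 14 to 59 reads each. In a6lo cells it lay at 13.3 and 4.69 CPM in KO and 7.95, 7.77 and 3.97 CPM in WT libraries. All 5 a6lo libraries were above all 5 CD34-/a6hi libraries. CD34+ libraries fell into a low set and a high pair, with 2.35 and 2.97 CPM in KO and 1.48 CPM in WT replicate 1, but 9.31 and 9.10 CPM in WT replicates 2 and 3. The means were 1.30 ± 0.621 (SD, n = 5) in CD34-/a6hi, 7.54 ± 3.69 in a6lo and 5.04 ± 3.84 CPM in CD34+ cells.

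Cdh1 (ENSMUSG00000000303) was read throughout, with at least 1988 reads per library. It lay at 391 and 462 CPM in KO and 397, 240 and 216 CPM in WT libraries of a6lo cells. In CD34-/a6hi cells it lay at 263 and 179 CPM in KO and 145, 233 and 153 CPM in WT libraries, and in CD34+ cells at 263 and 167 CPM in KO and 217, 145 and 165 CPM in WT libraries. Within each of the 5 labels the a6lo library was above both a6hi libraries, but libraries of different labels overlapped. The means were 341 ± 107 (SD, n = 5) in a6lo, 194 ± 51.3 in CD34-/a6hi and 191 ± 48.2 CPM in CD34+ cells.

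Cdh3 (ENSMUSG00000061048) had ranges that overlapped across the populations. It lay at 88.3 and 69.9 CPM in KO and 73.1, 61.8 and 48.1 CPM in WT libraries of CD34+ cells, at 86.6 and 67.4 CPM in KO and 43.2, 76.0 and 50 CPM in WT libraries of CD34-/a6hi cells, and at 56.3 and 80.3 CPM in KO and 63.1, 52.7 and 49.0 CPM in WT libraries of a6lo cells. The means of 68.2 ± 14.8, 64.6 ± 17.98 and 60.3 ± 12.4 CPM (SD, n = 5) differed by less than the spread. On a per-length scale (CPM per kilobase of exon, with exon lengths of GENCODE M21, an annotation of another build) the median level over the 15 libraries was 47.4 for Cdh1, 34.8 for Snai2, 14.4 for Cdh3, 0.626 for Vim, 0.0295 for Snai1 and 0.0019 for Zeb2, and 0 for Zeb1, Twist2, Prrx1 and Cdh2. Ranges of Cdh1 (31.6 to 101) and Snai2 (11.6 to 76.5) overlapped on this scale, as did those of Snai2 and Cdh3 (9.85 to 20.2), while Vim stayed at 2.8 or below.

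**Figure D2:**
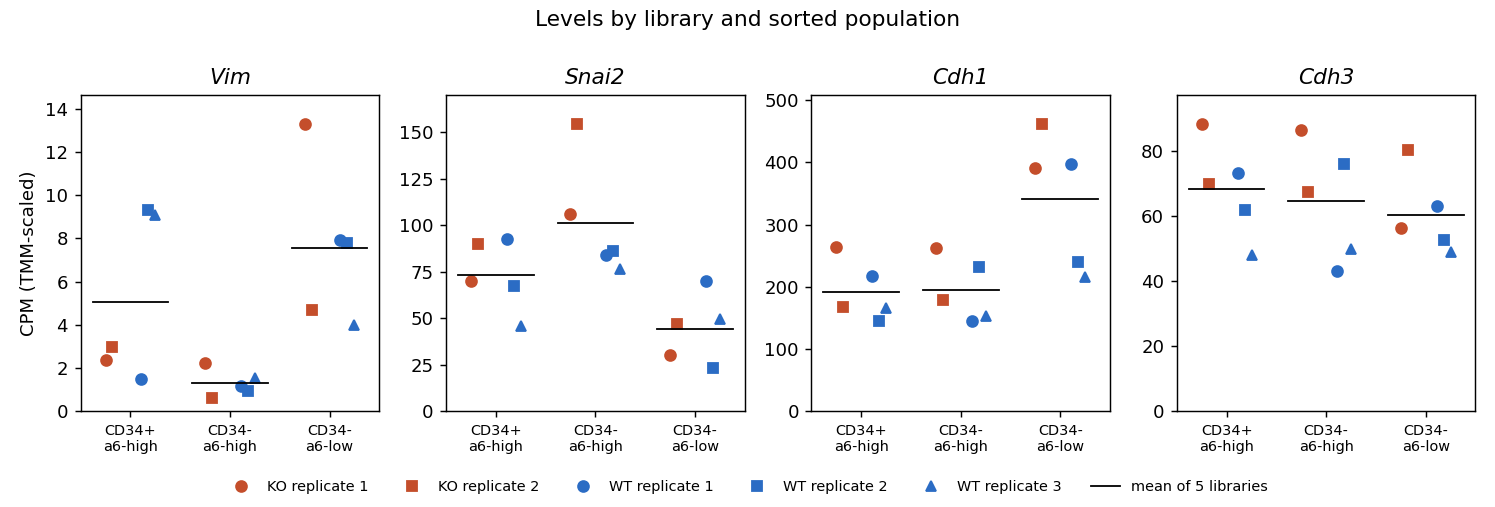
Levels of Vim, Snai2, Cdh1 and Cdh3 in CPM (vertical axes, linear from 0) in each library of the 3 populations, with colour for genotype, symbol for replicate number and a line at the mean of 5 libraries. Snai2 and Vim of CD34-/a6hi and a6lo cells do not overlap and lie in opposite order, and Cdh3 shows no step.

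The first comparison asked what differs between a6hi and a6lo cells when both are CD34-. Snai2 was 2.40-fold higher in a6hi cells (log2 1.26 ± 0.28 SE), Vim 5.82-fold lower (log2 -2.54 ± 0.54) and Cdh1 1.76-fold lower (log2 -0.82 ± 0.23), each in the same direction in 5 of 5 labels. None of these passed after adjustment over 14652 genes (adjusted p = 0.189 for Snai2, 0.181 for Vim and 0.245 for Cdh1 in edgeR's quasi-likelihood test). Cdh3 differed by log2 0.11 ± 0.20 (adjusted p = 0.904). So 0 of the 5 tested genes were called, where 0.00683% of all tested genes were, and 3 had an unadjusted p under 0.05 against 11.1% of all genes. The libraries of Vim and Snai2 did not overlap, which held for 1.77% of all genes. DESeq2 called all 3, Vim (log2 -2.56, adjusted p = 0.000437), Snai2 (1.26, 0.00543) and Cdh1 (-0.83, 0.0478), and it called 1.64% of all genes it adjusted.

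Leaving out the a6lo libraries of WT replicate 1 and KO replicate 2, whose Itga6 was at the a6hi level, a choice made with that known, Vim (log2 -2.74 ± 0.58, adjusted p = 0.0356) and Snai2 (log2 1.63 ± 0.31, adjusted p = 0.0235) passed the edgeR test and Cdh1 did not. That setting called 2.23% of all genes. Snai2 was at 70.3 and 47.2 CPM in these 2 libraries and at 23.5 to 49.7 CPM in the other a6lo libraries.

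Markers of other cell types differed in the same comparison, with none called. Of the macrophage and dendritic cell markers 8 of 9 tested were lower in CD34-/a6hi cells, and the 12 markers summed to 10.05 to 129 CPM in these libraries and 32.4 to 181 CPM in a6lo libraries. Cd74, the invariant chain of antigen presentation, was at 0.460 to 115 CPM and 13.7 to 156 CPM. All 8 tested endothelial, all 5 melanocyte and all 3 neutrophil and mast cell markers were lower too, with sums of 5.26 to 14 against 5.45 to 28.7 CPM, 1.01 to 5.61 against 1.32 to 141 CPM and 71.1 to 490 against 206 to 1522 CPM, the last mostly S100a8 and S100a9, which keratinocytes also make. Of the endothelial, melanocyte and neutrophil and mast cell markers, 3, 2 and 2 had an unadjusted p under 0.05. Fibroblast markers gave 72.2 to 168 against 76.6 to 150 CPM, almost all of it Fbln1, with Lum and Dpt at 0 in all libraries and Col1a1, Col1a2 and Col3a1 at 1.91 CPM or less. The 2 tested muscle and pericyte markers went the other way, higher in CD34-/a6hi cells (log2 1.14 for Cspg4 and 1.54 for Myh1). That list summed to 5.84 to 27.0 against 0.80 to 13.6 CPM. The highest Vim level, 13.3 CPM in the a6lo library of KO replicate 1, went with the highest melanocyte sum (141 CPM). The part of these cells in the Vim difference was not tested.

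Between CD34+ and CD34-/a6hi cells, the comparison that isolates CD34, Vim was 3.18-fold higher in CD34+ cells (log2 1.67 ± 0.53 SE, adjusted p = 0.142 in edgeR) and higher in 5 of 5 labels. The ranges overlapped, and the pair of values was 9.31 against 0.956 CPM in WT replicate 2 but 2.35 against 2.24 CPM in KO replicate 1. Snai2 was 1.40-fold lower (log2 -0.48 ± 0.28, adjusted p = 0.478), lower in 4 of 5 labels, and Cdh1 (log2 -0.02 ± 0.23, adjusted p = 0.986) and Cdh3 (log2 0.08 ± 0.20, adjusted p = 0.931) lay close to 0. Again 0 of the 5 tested genes passed, where 1.17% of all tested genes did, and none was free of overlap between the populations, as 4.2% of all genes were. Only Vim had an unadjusted p under 0.05, against 15.1% of all genes. DESeq2 called Vim alone among the 10 (log2 1.69, adjusted p = 0.0258), at 5.32% of all genes it adjusted. With the label as a block 5.37% of all genes passed in edgeR and 0 of the 5 members tested.

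Endothelial cells carry CD34 and vimentin, and their markers differed in the same direction as Vim. Each of the 8 endothelial markers that were tested was higher in the CD34+ gate, where 47.2% of all genes were higher. None of them was called (smallest adjusted p = 0.0793 in edgeR, for Plvap). An unadjusted p under 0.05 was found for 6 of the 8, against 15.1% of all genes. The libraries of 3 did not overlap between the populations, against 4.2% of all genes. The 12 summed to 19.3 to 80.9 CPM against 5.26 to 14 CPM, without overlap. WT replicate 3 had the highest sum (80.9 CPM) and a Vim of 9.10 CPM, while WT replicate 2 had the lowest sum of the CD34+ libraries (19.3 CPM) and the highest Vim of them. The endothelial cadherin gene Cdh5 reached at most 0.328 CPM in CD34+ libraries and 0 in 2 of them. Markers of other cells were called in both directions. The macrophage marker Cd68 was 2.20-fold higher in CD34+ cells (adjusted p = 0.0254), at 14.1 to 22.5 against 5.96 to 10.02 CPM, and Thy1, on the fibroblast list, was lower (log2 -5.68, adjusted p = 0.0352), at 0 to 0.274 against 0.614 to 3.82 CPM. They lost the call in 7 and 8 of 10 fits that each left out 1 library (adjusted p up to 0.117 and 0.162). In CD34+ cells all 6 tested fibroblast markers lay lower, as did 6 of 9 of the macrophage list, and the sums of both lists overlapped. Of the fibroblast markers only Thy1 was called. Fbln1 differed by log2 -0.02 ± 0.19 SE, and the signs of Col1a2 and Dcn cannot be read (SE 8822 and 2519). The share of these cells' RNA in the Vim level was not tested.

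Between CD34+/a6hi and CD34-/a6lo cells, which differ in both sort markers, Cdh1 was 1.79-fold lower in CD34+ cells (log2 -0.84 ± 0.23 SE, adjusted p = 0.0551), lower in 5 of 5 labels. Same-numbered libraries of these populations deviated together, and with the label as a block Cdh1 passed (log2 -0.84 ± 0.16, adjusted p = 0.0205 in edgeR). In that fit 12% of all genes passed, against 4.93% without the block, where 0 of the 5 tested genes did. Snai2 was 1.72-fold higher (log2 0.78 ± 0.28, adjusted p = 0.131) and higher in 4 of 5 labels, and Vim 1.83-fold lower (log2 -0.87 ± 0.51, adjusted p = 0.349), lower in 3 of 5. Cdh1 and Snai2 had an unadjusted p under 0.05, against 21.6% of all genes, and DESeq2 called Cdh1 alone among the 10 (adjusted p = 0.0106), at 11.8% of all genes it adjusted. Without the 2 a6lo libraries with high Itga6, Snai2 passed (log2 1.15 ± 0.30, adjusted p = 0.0463) and Cdh1 did not, at 6.37% of all genes. None of the 5 tested genes was free of overlap here, as 6.91% of all genes were. Macrophage and melanocyte markers fell in the same comparison: Lyz2 (log2 -4.71, adjusted p = 0.0179), Tyrobp (log2 -3.28, adjusted p = 0.045) and Mitf (log2 -3.11, adjusted p = 0.0369). Lyz2 lay at 0 to 4.57 CPM in CD34+ and 0.641 to 8.11 CPM in a6lo libraries, and the 3 lost the call in 1, 7 and 9 of 10 fits without 1 library, each of them without the CD34+ library of KO replicate 1 (adjusted p = 0.0792, 0.175 and 0.127). Of the macrophage and dendritic cell markers 7 of 9 were lower, with sums of 21.7 to 48.6 against 32.4 to 181 CPM, as were all 6 tested fibroblast and 4 of 5 melanocyte markers, while 7 of 8 endothelial markers were higher. No fibroblast marker was called. Fbln1 differed by log2 -0.09 ± 0.19 SE, and the sign of Dcn cannot be read (SE 4466). Krt1 and Krt10, keratins of differentiating keratinocytes, were 5.13-fold and 4.43-fold lower without passing (adjusted p = 0.0562 and 0.0603). The part of these cells in the differences was not tested. The comparisons share libraries, so their values are set side by side and are not separate evidence.

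**Figure D3:**
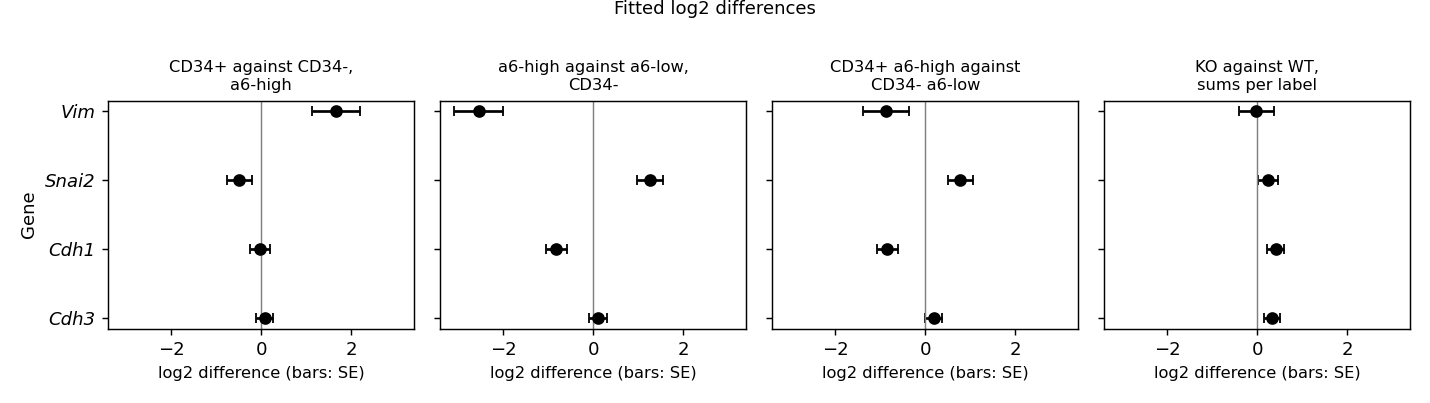
Fitted log2 differences (points) with standard errors (bars) of Vim, Snai2, Cdh1 and Cdh3 in the 3 population comparisons and in KO against WT sums per label; positive values are higher in the first group. Vim and Snai2 lie on opposite sides of 0 in each population comparison, and the differences between genotypes run from -0.02 for Vim to 0.40 for Cdh1.

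The 2 epithelial cadherins were also compared within each library by the ratio of their counts, given as a description without a test. There were 0.335 and 0.419 Cdh3 counts per Cdh1 count in KO and 0.337, 0.428 and 0.291 in WT libraries of CD34+ cells. CD34-/a6hi cells gave 0.33 and 0.378 in KO and 0.298, 0.327 and 0.327 in WT, and a6lo cells 0.144 and 0.174 in KO and 0.159, 0.219 and 0.227 in WT. The ratio averaged 0.362 ± 0.0592 (SD, n = 5), 0.332 ± 0.0288 and 0.185 ± 0.0367, and each of the 10 a6hi libraries lay above each of the 5 a6lo libraries. The a6lo libraries with high Itga6 kept the low ratio. Counts per Cdh1 count did not overlap between CD34-/a6hi and a6lo cells for 11.2% of all tested genes, and between CD34+ and a6lo cells for 15.7%, so the pattern is shared by many genes. Between the a6hi populations the ratios overlapped, and 2.5% of all genes were free of overlap.

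**Figure D4:**
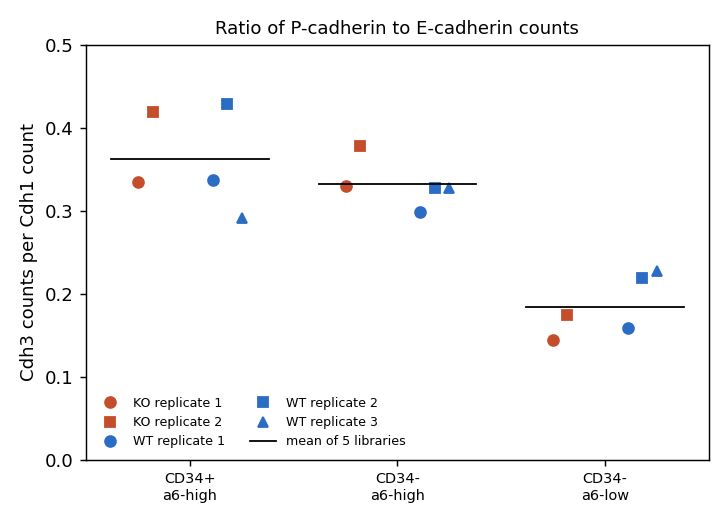
Cdh3 counts per Cdh1 count (vertical axis, linear from 0) in each library of the 3 populations, with colour for genotype, symbol for replicate number and a line at the mean of 5 libraries. The a6lo libraries reach 0.227 and the a6hi libraries start at 0.291.

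Between genotypes, the series asks what loss of the histone deacetylase SIRT6 changes. None of the 5 tested genes passed in any population, where 0.00683% of all tested genes did in each, and none had an unadjusted p under 0.05 in edgeR. DESeq2 called none of the 10. In sums per label (2 KO against 3 WT) 0 of the 5 tested genes passed too in edgeR, at 0.00641% of all tested genes. The log2 differences were 0.40 ± 0.20 SE for Cdh1 (adjusted p = 0.495), 0.32 ± 0.18 for Cdh3 (0.534), 0.24 ± 0.22 for Snai2 (0.684) and -0.02 ± 0.39 for Vim (0.989).

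Within populations, Snai2 of CD34-/a6hi cells was 1.58-fold higher in KO (log2 0.66 ± 0.39 SE, adjusted p = 0.564), with both KO libraries above the 3 WT libraries, as for 30.2% of all genes in either direction. No other tested gene of the 5 was free of overlap between genotypes in any population, against 28.1% of all genes in CD34+ and 14.9% in a6lo cells. In a6lo cells Snai2 was lower in KO (log2 -0.31 ± 0.40, adjusted p = 0.904). Vim of CD34+ cells was 2.48-fold lower in KO (log2 -1.31 ± 0.74, adjusted p = 0.659), with WT replicate 1 below both KO libraries. Cdh1 was higher in KO by log2 0.29 ± 0.32, 0.32 ± 0.32 and 0.58 ± 0.32 and Cdh3 by 0.37 ± 0.28, 0.45 ± 0.27 and 0.31 ± 0.28 in CD34+, CD34-/a6hi and a6lo cells, with the ranges overlapping each time. The CD34 effect and the a6 effect were not shown to differ between KO and WT for any of the 5 tested genes (interaction terms, 0% of all genes called in edgeR, smallest unadjusted p among them 0.108). DESeq2 called none of the 10 in either.

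The rest of the EMT programme was read from lists of related genes. The lists were chosen with earlier results of these data known, so their counts beside the shares of all genes are a description. In CD34+ against CD34-/a6hi cells 2 of 11 other EMT transcription factors, all tested, rose and 0 fell, where 0.846% of all genes rose. Their median log2 difference was 1.6, against -0.02 for all genes. Twist1, a relative of Twist2, rose 7.07-fold (log2 2.82 ± 0.46 SE, adjusted p = 0.013). Its level was 0.0758 to 2.84 CPM in CD34- and 1.68 to 14.7 CPM in CD34+ libraries. Foxc1, a forkhead factor, rose 3.04-fold (log2 1.60 ± 0.25, adjusted p = 0.0105), from 3.60 to 5.34 CPM to 7.71 to 17.7 CPM without overlap, but lost its call without the 3 libraries of KO replicate 2 (adjusted p = 0.0867). Twist1 kept its call there (adjusted p = 0.0336) and lost it without the CD34-/a6hi library of KO replicate 1 (adjusted p = 0.0617). Its log2 difference went to 3.895 without the CD34-/a6hi library of KO replicate 2. Foxc1 also lost its call without the CD34-/a6hi library of either KO replicate or the CD34+ library of KO replicate 1 (adjusted p up to 0.0801). The other lists had no call here, with 10 of 11 epithelial junction genes higher (median log2 0.47) and 7 of 10 tested mesenchymal effectors lower (median log2 -0.21), where 47.2% of all genes were higher. At an unadjusted p under 0.05 were 1 junction gene and 0 of the effectors, against 15.1% of all genes. That gene was Cldn1, the only junction gene that was lower (log2 -1.44, adjusted p = 0.139 in edgeR). The markers of other cells given above differed in this comparison too, with Cd68 called higher, Thy1 called lower and the endothelial markers higher without a call.

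Against a6lo cells 3 of the 11 rose and 0 fell in CD34+ cells, where 2.25% of all genes rose. These were Twist1 (4.73-fold, adjusted p = 0.018), Prrx2, the homolog of Prrx1 (9.63-fold, adjusted p = 0.0303), and the chromatin protein gene Hmga2 (11.03-fold, adjusted p = 0.0362). Prrx2 was low, at 0.0415 to 0.235 CPM in a6lo and 0.378 to 5.96 CPM in CD34+ libraries, and Hmga2 lay at 0.182 to 4.73 against 8.69 to 43.0 CPM. Without the libraries of KO replicate 2, Twist1 (adjusted p = 0.0561) and Prrx2 (adjusted p = 0.195) did not pass. Hmga2 did (adjusted p = 0.0493). In 10 fits that each left out 1 library, Twist1 lost its call in 1 (without the CD34+ library of KO replicate 2, adjusted p = 0.0725), Prrx2 in 6 and Hmga2 in 7 (adjusted p up to 0.0931 and 0.122). The log2 difference of Hmga2, 3.46 with all libraries, was 2.68 without the CD34+ library of KO replicate 2, and 5.31 and 4.21 without the a6lo libraries of KO replicate 2 and WT replicate 1. That of Prrx2 went from 3.27 to 2.53 without the CD34+ library of WT replicate 2. Lyz2, Tyrobp and Mitf fell in the same comparison, as given above. Between CD34-/a6hi and a6lo cells 0 of the 11 passed edgeR's test. An unadjusted p under 0.05 was found for 3, against 11.1% of all genes, led by Foxc1 (log2 -1.31, adjusted p = 0.165).

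Of 12 regulators that hold cells in the epithelial state 3 fell, where 2.68% of all genes did, and 0 rose in CD34+ against a6lo cells, with a median log2 difference of -0.41 against -0.02 over all genes. The ETS factor genes Ehf (3.92-fold lower, adjusted p = 0.0101) and Elf3 (3.67-fold lower, adjusted p = 0.0156) and the zinc finger gene Ovol1 (2.09-fold lower, adjusted p = 0.0366) were the 3. All 3 lost the call without the libraries of KO replicate 2 (adjusted p = 0.0674, 0.0744 and 0.101), and all 3 without the CD34+ library of KO replicate 1 alone (adjusted p = 0.0654, 0.0764 and 0.111). Ovol1 lost it in 8 of 10 fits without 1 library. The lower Lyz2, Tyrobp, Mitf, Krt1 and Krt10 of this comparison stand beside these values, and their part in them was not tested. Between CD34-/a6hi and a6lo cells 0 of the 12 passed, 9 were lower and 8 had an unadjusted p under 0.05 (median log2 -0.69), where 47.6% of all genes were higher and 11.1% had such a p, led by Klf5 (log2 -0.72, adjusted p = 0.179) and Grhl3 (log2 -1.42, adjusted p = 0.189). In the CD34 comparison 0 of the 12 passed and 3 had an unadjusted p under 0.05, against 15.1% of all genes.

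Junction genes, catenins and mesenchymal effectors showed 1 call. Of 11 epithelial junction genes the tight junction gene Cldn1 was 9.57-fold lower in CD34+ than in a6lo cells (log2 -3.26 ± 0.49 SE, adjusted p = 0.00922), at 10.3 to 34.1 against 83.7 to 352 CPM, where 2.68% of all genes fell. It passed without KO replicate 2 (adjusted p = 0.0456) but not without the CD34+ library of KO replicate 1 (adjusted p = 0.0642). In the same comparison 0 of 7 catenins and cadherin partners, 0 of 10 tested mesenchymal effectors and 0 of 4 tested other classical cadherins passed edgeR's test, where 4.93% of all genes did. At an unadjusted p under 0.05 were 1, 1 and 0 of them, against 21.6% of all genes. Between CD34-/a6hi and a6lo cells all 7 catenins and partners were lower (median log2 -0.29) and 10 of 11 junction genes were (median log2 -0.68), with 0 called. An unadjusted p under 0.05 was found for 0 and 7 of them, against 11.1% of all genes. In KO against WT sums 0 genes of these lists passed. Of the 11 EMT factors 4 had an unadjusted p under 0.05, against 10.6% of all genes, led by Twist1 (log2 -2.06, adjusted p = 0.461).

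**Figure D5:**
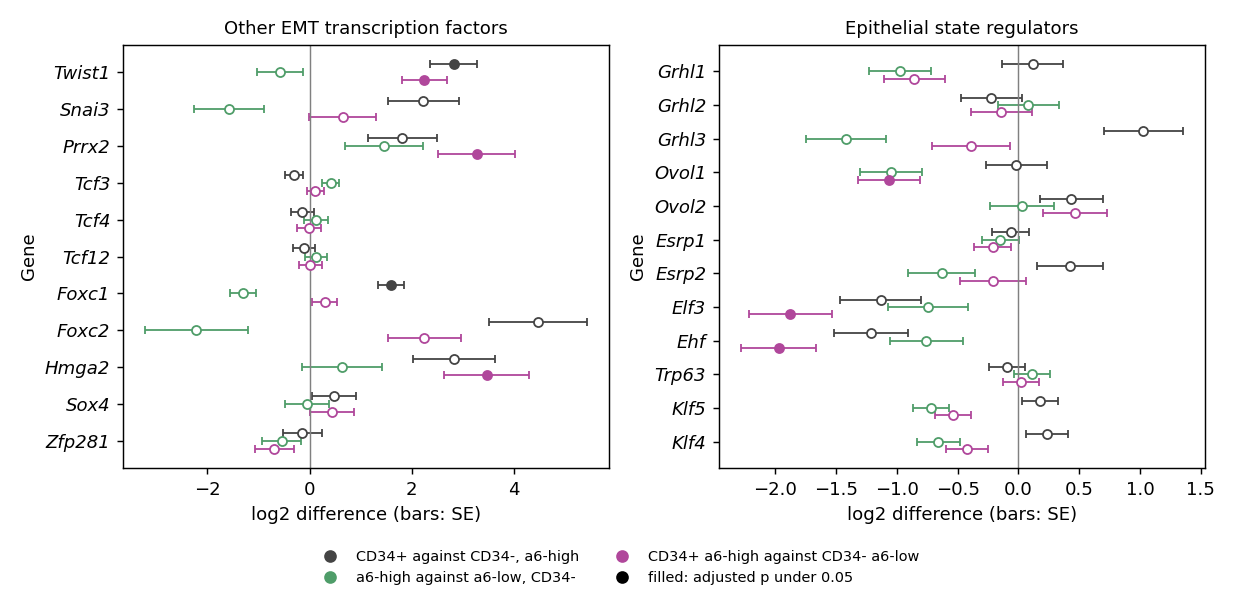
Log2 differences (points, bars are SE) of 11 other EMT transcription factors and 12 epithelial state regulators in the 3 population comparisons; filled points passed at an adjusted p under 0.05. Twist1 and Foxc1 are filled in the CD34 comparison, and Ehf, Elf3 and Ovol1 are filled on the lower side against a6lo cells.

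The patterns over the 15 libraries can be described by the genes that followed each member most closely, with Pearson's r of log2(CPM + 1) among 9316 candidates. The points share labels and populations. Snai2 was nearest to Tfam (r = 0.873) and Vrk2 (0.87), Vim to Tom1 (0.891) and Ctsc (0.882), Cdh1 to Kdm7a (0.967) and Atf6 (0.947), and Cdh3 to Slc38a2 (0.9) and Tbl1x (0.895). Among the members themselves, Vim and Snai2 ran opposite (r = -0.776), while Cdh1 ran only weakly against Snai2 (r = -0.377) and with Vim (r = 0.364).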

How the data were processed

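The series holds 15 RNA-seq libraries of 6 groups, and the deposited values are raw read counts per Ensembl gene, made without use of strand. STAR 2.3.0, Picard 1.100, HTSeq 0.6.0 and build mm9 are named in the submitters' processing notes, with no role given. Genes overlapping on opposite strands cannot be told apart. The last 5 lines of each table, which count reads without a gene, were dropped: no feature held 2.61 to 5.13%, ambiguous reads 1.86 to 2.2% and multiply aligned reads 29.86 to 38.04% of all lines of a table together.

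Symbols came from GENCODE M21, used for names and exon lengths only. edgeR 4.0.16 (R 4.3.3) fitted all 15 libraries with TMM scaling, filterByExpr and 1 coefficient per group. The quasi-likelihood test was adjusted by Benjamini-Hochberg over 14652 genes (15597 in the sums per label) with a threshold of 0.05, and SE is the absolute log2 difference divided by the root of F. DESeq2 1.42.0 was an alternative. All 10 genes are named, with those called in each list of related genes, up to 4, or else up to 2 with the smallest p. The genes and lists were chosen with earlier results of these data known. The fits were also run on simulated counts drawn independently for each library. That run cannot speak to libraries that share a label. Replicate libraries differed far beyond counting error (chi-square per degree of freedom 38.5 to 304).

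Same-labelled libraries deviated together between CD34+ and CD34-/a6hi cells (r = 0.104 to 0.53) and between CD34+ and a6lo cells (r = 0.273 to 0.589), all above 0.1. Between CD34-/a6hi and a6lo cells r was mixed, at 0.466 in KO and 0.044, -0.0124 and 0.45 in WT replicates 1 to 3. Same-numbered KO and WT libraries of a population gave -0.501 to 0.105. Deviations were taken from the group mean, so the 2 KO labels of a pair of populations give the same r by construction.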

Additional observations from a re-analysis of the deposited data

How the results depend on the processing

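The directions of Vim, Snai2 and Cdh1 for CD34-/a6hi against CD34-/a6lo, and of Cdh1 and Snai2 for CD34+/a6hi against CD34-/a6lo, were kept under every alternative run, while their calls moved. The cause of these moves was not tested. Twist2 rests on few reads, and 2 KO libraries per population limit every genotype value.

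DESeq2 called 843 genes (Vim the 1 member) for CD34+ against CD34- in a6hi cells, 228 (3 members) for a6hi against a6lo and 1587 (1 member) for CD34+ against a6lo, where edgeR called 171, 1 and 722. It called 25, 33 and 6 genes between genotypes in CD34+, CD34-/a6hi and a6lo cells, 137 in the sums and 1 for the CD34 interaction, with 0 members. With no filter on low counts the same order gave 1242 (1 member, Vim), 602 (3, Vim, Snai2 and Cdh1) and 1900 (2, Snai2 and Cdh1), or 4.94%, 2.39% and 7.55% of all genes, then 195, 256, 156 and 6, and 20 and 13 for the CD34 and a6 interactions, and the Vim difference of the sums turned from -0.02 to 0.00755. At 10 CPM or more in 2 libraries a6hi against a6lo gave 3 genes, and Cdh1 was the 1 member called for CD34+ against a6lo, at 7.25% of all genes.

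With the replicate block the population comparisons gave 763, 0 and 1710 genes, with Cdh1 the 1 member called in the last, and it changed no other member's call. The genotype comparisons gave 2 genes in each population and 0 in the sums, and Twist2 turned to -0.60 in CD34+ cells (from 0.996) and -0.34 in the sums (from 1.04). A block over all 15 libraries, chosen after seeing the data, gave 793, 60 (1 member, Snai2, adjusted p = 0.0495) and 1733 (2 members, Snai2 and Cdh1), or 5.41%, 0.41% and 11.8% of all genes.

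Without the 2 a6lo libraries with high Itga6, a6hi against a6lo gave 342 genes and 2 members, CD34+ against a6lo gave 1 member, and Twist2 turned to 2.45 in the former (from -1.06). Without the 3 libraries of KO replicate 2 the population comparisons gave 32, 0 and 116 genes and the genotype comparison 4 in CD34-/a6hi and 6 in a6lo cells, and Twist2 turned to -5.43 in CD34+ cells.

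Leaving out 1 library at a time, 0 members were called in any comparison. The counts of all genes ran from 7 (without the CD34-/a6hi library of KO replicate 1) to 258 for CD34+ against CD34-, from 1 to 50 for a6hi against a6lo, from 41 (without the CD34+ library of KO replicate 1) to 691 for CD34+ against a6lo, from 1 to 2 between genotypes in CD34+ and in CD34-/a6hi cells, and from 0 to 10 in the sums. Some log2 differences changed sign. Those of Twist2 rest on groups at or near 0, so only their sign can be read. For CD34+ against CD34- they ran from -0.21 to 0.13 for Cdh1 and -0.016 to 0.21 for Cdh3. For a6hi against a6lo they ran from -0.033 to 0.25 for Cdh3 and -3.50 to 0.79 for Twist2, and for CD34+ against a6lo from -0.76 to 4.34 for Twist2. Between genotypes they ran in CD34+ cells from -0.0055 to 0.49 for Snai2, -0.073 to 0.59 for Cdh1 and -5.49 to 2.01 for Twist2, and in CD34-/a6hi cells from -0.96 to 0.90 for Vim. In a6lo cells they ran from -0.47 to 1.02 for Vim, -0.65 to 0.078 for Snai2 and -3.66 to 3.34 for Twist2, and in the sums from -0.73 to 0.45 for Vim, -0.016 to 0.45 for Snai2 and -5.83 to 2.05 for Twist2.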
